A study of Mus musculus with 6 samples.

Results

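Beta-cluster and non-clustered protocadherins are described here in cultured mouse embryonic fibroblasts whose labels read SphK2 null or wild type. The set holds 32 of the 46983 genes in the count tables, namely the 22 genes Pcdhb1 to Pcdhb22 and the 10 non-clustered genes Pcdh1, Pcdh7, Pcdh8, Pcdh9, Pcdh10, Pcdh12, Pcdh17, Pcdh18, Pcdh19 and Pcdh20. The set was prompted by the loss of Pcdh19 between these same libraries, so Pcdh19 is given as a description with no test. The other members were chosen by family name, and all 32 symbols were matched to an Ensembl identifier.

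Protocadherins are adhesion receptors of the cadherin superfamily, with a string of extracellular cadherin repeats, a single membrane span and a cytoplasmic tail. The alpha, beta and gamma genes stand in tandem arrays in which each variable exon has its own promoter. In neurons each cell switches on a few of these promoters, with the help of CTCF and cohesin, and the resulting mixture of isoforms lets a cell recognise its own processes. The beta proteins are each encoded by a single exon and lack the constant cytoplasmic region that the alpha and gamma proteins share. The non-clustered genes, scattered over the genome, are known mainly from neural development, where several of them guide axons, migrating cells and synapses.

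The comparison set 3 libraries labelled SphK2 null against 3 libraries labelled wild type, and it asked how the fibroblast transcriptome differs when sphingosine kinase 2 is missing. Sphingosine kinase 2 phosphorylates sphingosine to the signalling lipid sphingosine 1-phosphate. Both groups came from C57BL/6 mouse embryos aged 14 days, were taken at passage 16, and grew in DMEM with 10% FBS, penicillin and streptomycin, sodium pyruvate and non-essential amino acids. The labels do not give the part of Sphk2 that was removed, the number of embryos behind each culture, whether a culture came from a single clone, or whether replicates were separate cultures, so p-values measure the spread between these libraries only. Sphk2 itself went against the labels: it had 49.3, 51.5 and 49.0 CPM (counts scaled to library size) in the null-labelled libraries, against 28.1, 27.4 and 26.3 CPM in the wild-type-labelled ones. The groups did not overlap, and the log2 fold change, null-labelled over wild-type-labelled, was 0.87 ± 0.05 (SE; edgeR quasi-likelihood test, adjusted p = 4.48e-64). Gene counts sum all exons, so transcript from an altered allele would be counted too, but whether that happened here was not tested. Every direction below is therefore that of the libraries labelled SphK2 null relative to those labelled wild type.

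Total counts ran from 16804841 to 19148434 in the null-labelled libraries and from 15598566 to 23681718 in the wild-type-labelled ones, and 3 counts correspond to 0.154 to 0.175 CPM in the null-labelled and 0.129 to 0.197 CPM in the wild-type-labelled libraries. The groups differed over most of the transcriptome. Of the 15199 genes that passed the filter on low counts, 38.1% rose and 41.1% fell past an adjusted p of 0.05, null-labelled against wild-type-labelled, and 8.68% fell by over 8-fold. Fibroblast markers were part of that difference, since all 12 listed markers were lower. Their summed level was 3354 to 3389 CPM in the null-labelled libraries and 12792 to 13189 CPM in the wild-type-labelled ones. Thy1, a surface marker of fibroblasts, had 0 counts in all 3 null-labelled libraries, against 256 counts over the 3 wild-type-labelled ones. In the null-labelled libraries set against the wild-type-labelled ones, Col1a1 averaged 1.68 ± 0.209 CPM against 622 ± 17.0 CPM, Col1a2 7.38 ± 0.488 against 2602 ± 43.1, Pdgfra 89.3 ± 1.18 against 249 ± 7.49, Pdgfrb 28.9 ± 1.06 against 107 ± 2.37 and Vim 3207 ± 17.8 against 5615 ± 115 (mean ± SD, n = 3 libraries each). The other marker lists had lower sums than the fibroblast list in both groups. In the null-labelled libraries nearly all of the fibroblast sum was Vim, and that ranking rests on this gene. Of the 10 epithelial markers 3 passed the filter, and their list summed to 385 to 410.1 CPM in the null-labelled against 108 to 111 CPM in the wild-type-labelled libraries, nearly all of it Krt8, while Epcam and Cdh1 were under 1 CPM in both groups. Krt18 was lower, at 0.289 ± 0.0319 CPM in the null-labelled libraries and 1.19 ± 0.285 CPM in the wild-type-labelled ones, and Krt14 had 35 counts over the null-labelled libraries and 0 over the wild-type-labelled ones. The 10 neuronal markers summed to 45.3 to 46.7 null-labelled CPM against 82.3 to 83.8 wild-type-labelled CPM, with Nefl and Rbfox3 at 0 in the null-labelled libraries. Of these markers 7 passed the filter, and 5 were lower, among them Stmn2 at 0.202 ± 0.188 CPM in the null-labelled libraries and 42.5 ± 0.836 CPM in the wild-type-labelled ones, while Syn1 was higher, at 30.9 ± 0.54 CPM in the null-labelled libraries and 16.4 ± 0.422 CPM in the wild-type-labelled ones. The 8 glial and neural crest markers summed to 13.7 to 14.9 null-labelled CPM against 129 wild-type-labelled CPM, with Sox10 and Foxd3 at 0 in the null-labelled libraries. Only 3 of these markers passed the filter, of which 1 was higher and 2 were lower, with a median log2 fold change of -0.474. The 7 muscle markers summed to 5.16 to 6.24 null-labelled CPM against 6.82 to 8.52 wild-type-labelled CPM, with Myod1 and Myog at 0 in both groups. The 8 blood markers summed to 3.46 to 4.25 null-labelled CPM against 3.74 to 3.97 wild-type-labelled CPM, with Cd3e at 0 in both. The part of these differences in the protocadherin results was not tested. In bulk RNA, fewer cells of a type and less RNA per cell cannot be told apart.

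Among the non-clustered genes the 3 with the highest counts in the wild-type-labelled libraries, Pcdh7, Pcdh18 and Pcdh19, were nearly or wholly absent from the null-labelled ones. Pcdh19, the X-linked gene whose human counterpart causes an epilepsy that affects mainly heterozygous females, lies on the minus strand at chrX:133582860-133688987 (GRCm38, 7 exon blocks). It had 0, 0 and 0 counts in the null-labelled libraries, against 1488, 920 and 1163 counts in the wild-type-labelled ones, a level of 61.7 ± 1.97 CPM (SD, n = 3). With a floor of 3 counts over the 3 null-labelled libraries, it was at least 1145-fold lower in them. No test is given for it, since this loss prompted the gene set.

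Pcdh18, a relative of Pcdh19 in the delta-2 group whose tail was reported to bind the adaptor Dab1, lies at chr3:49743296-49757325 on the minus strand. It had 7, 5 and 4 counts in the null-labelled libraries, against 4047, 2751 and 3346 counts in the wild-type-labelled ones. That is 0.288 ± 0.0727 CPM in the null-labelled libraries against 176 ± 3.42 CPM in the wild-type-labelled ones (SD, n = 3 each), a 609.9-fold lower level with a 95% counting interval of 375 to 1067. Pcdh7, a delta-1 protocadherin whose tail binds protein phosphatase 1, lies at chr5:57717967-58133230 on the plus strand. Its counts were 7, 14 and 8 in the null-labelled libraries and 4508, 3064 and 3523 in the wild-type-labelled ones, or 0.534 ± 0.248 null-labelled CPM against 193 ± 8.31 wild-type-labelled CPM (SD, n = 3 each). The level was 368-fold lower, with a counting interval of 256 to 549.8. In both genes each null-labelled library kept a few reads, and no library came near the other group's range. Fitted log2 fold changes were -9.22 ± 0.09 for Pcdh18 and -8.51 ± 0.08 for Pcdh7 (SE), and both genes entered the fit through the wild-type-labelled libraries alone, so no p is given for them.

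Pcdh9, Pcdh17 and Pcdh20 had fewer counts in the wild-type-labelled libraries and were also lost from the null-labelled ones. These 3 genes lie on chromosome 14, at 93013410 to 93890679 (minus strand), 84443563 to 84537060 (plus strand) and 88464743 to 88471396 (minus strand). Pcdh9, a delta-1 protocadherin of neural circuits, had 0, 0 and 0 counts in the null-labelled libraries, against 187, 137 and 180 in the wild-type-labelled ones, so it was at least 162-fold lower. Pcdh20 had 0, 0 and 0 counts in the null-labelled libraries, against 130, 84 and 95 in the wild-type-labelled ones, so it was at least 99.1-fold lower. Pcdh17, a delta-2 protocadherin that recruits the WAVE actin regulators along growing axons, had 1, 1 and 0 counts in the null-labelled libraries, against 157, 105 and 114 in the wild-type-labelled ones, a 181-fold lower level with a counting interval of 49.7 to 1499. No null-labelled library held more than a single read of any of the 3 genes, whereas each wild-type-labelled library held 84 reads or more. All 3 entered the fit through the wild-type-labelled libraries alone, so no p is given for them.

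The promoters of 4 of these genes are shown because genes that were lost together differed in base composition. Each sequence is the 250 bases before the RefSeq gene start (GRCm38.p6), read 5′ to 3′ on the gene's strand, and none of them reaches into the gene body as the count tables place it. Capitals mark matches, on either strand, to the TATA box TATAAA, the CCAAT box CCAAT and the GC box GGGCGG, and no match overlaps another. Pcdh19, Pcdh17 and Pcdh20 had at most 1 count in any null-labelled library, and Pcdh8 is shown as a member near 0 in both groups.
Pcdh19 (chrX:133688994-133689243, minus strand): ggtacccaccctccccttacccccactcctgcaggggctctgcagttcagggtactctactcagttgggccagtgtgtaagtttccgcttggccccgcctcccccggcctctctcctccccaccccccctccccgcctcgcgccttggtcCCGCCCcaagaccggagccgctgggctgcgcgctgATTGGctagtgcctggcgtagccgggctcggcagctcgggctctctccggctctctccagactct
Pcdh17 (chr14:84443313-84443562, plus strand): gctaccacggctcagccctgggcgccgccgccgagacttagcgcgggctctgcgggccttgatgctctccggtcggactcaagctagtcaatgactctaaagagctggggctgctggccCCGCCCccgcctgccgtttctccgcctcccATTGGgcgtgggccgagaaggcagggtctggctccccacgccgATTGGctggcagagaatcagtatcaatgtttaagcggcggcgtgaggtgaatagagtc
Pcdh20 (chr14:88471397-88471646, minus strand): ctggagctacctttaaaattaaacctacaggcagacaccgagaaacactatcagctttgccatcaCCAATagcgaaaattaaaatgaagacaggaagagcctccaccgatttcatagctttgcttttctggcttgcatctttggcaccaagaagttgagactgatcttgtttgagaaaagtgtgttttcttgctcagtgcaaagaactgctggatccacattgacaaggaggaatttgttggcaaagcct
Pcdh8 (chr14:79771313-79771562, minus strand): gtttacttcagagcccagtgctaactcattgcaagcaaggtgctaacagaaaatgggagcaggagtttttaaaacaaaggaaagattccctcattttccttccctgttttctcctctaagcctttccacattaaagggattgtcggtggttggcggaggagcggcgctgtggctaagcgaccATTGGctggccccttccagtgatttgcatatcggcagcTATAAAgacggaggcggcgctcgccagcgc
The Pcdh19 and Pcdh17 windows were rich in G and C, at 69.2% and 64.8%, with a ratio of observed to expected CpG of 0.573 and 0.8. The Pcdh20 window held 42.4% G and C with a ratio of 0.267 and only 3 CpG dinucleotides, and the Pcdh8 window held 51.2% with a ratio of 0.673. Over 32851 mouse promoters of the same length the median was 52.4% G and C (quartiles 45.2% and 61.2%) and the median ratio was 0.373. A GC box stood in the Pcdh19 and Pcdh17 windows and in 32.7% of all promoters. A CCAAT box stood in all 4 windows shown and in 33.8% of all promoters, and the TATA box stood in the Pcdh8 window and in 12.4% of all promoters. Among windows not shown, those of Pcdh18 and Pcdh10 held both a CCAAT box and a GC box. The Pcdh9 window held a CCAAT box and no GC box, and that of Pcdh7 held neither. G and C made up 68.0% of the Pcdh18 window, 63.6% of the Pcdh9 window and 58.4% of the Pcdh7 window. Of the lost genes only Pcdh20 thus lay below the median of all promoters. These matches describe letters in a window and not bound sites.

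The 4 remaining non-clustered genes were Pcdh1, Pcdh12, Pcdh10 and Pcdh8. Pcdh1, a delta-1 protocadherin of airway epithelium and a receptor for New World hantaviruses, had 85, 57 and 79 counts in the null-labelled libraries, against 102, 88 and 94 in the wild-type-labelled ones. Its level was 3.96 ± 0.555 CPM in the null-labelled libraries against 5.02 ± 0.698 CPM in the wild-type-labelled ones (SD, n = 3 each), with the highest null-labelled library at 4.35 CPM and the lowest wild-type-labelled one at 4.38 CPM. The log2 fold change was -0.31 ± 0.14 (SE; edgeR quasi-likelihood test, adjusted p = 0.0344). That call was lost with DESeq2 (adjusted p = 0.171), with library totals in place of TMM factors (0.0879), without wild-type-labelled replicate 2 (0.183), without wild-type-labelled replicate 3 (0.0544) and without null-labelled replicate 2 (0.201). Pcdh12, an adhesion receptor of endothelial and trophoblast cells, was the only non-clustered member with more reads in the null-labelled libraries, at 11, 6 and 8 counts, against 0, 0 and 0 in the wild-type-labelled ones. It was at least 8.66-fold higher in them, at 0.446 ± 0.108 CPM, and did not pass the filter on low counts. Fitted without that filter it was called higher by edgeR and by DESeq2. In that edgeR fit 6011 of the 27834 genes with an adjusted p were called higher. Pcdh12 entered these fits through the null-labelled libraries alone, so no p is given for it and nothing is read from the calls. The 8 endothelial markers summed to 3.89 to 4.95 CPM in the null-labelled libraries and 2.02 to 2.77 CPM in the wild-type-labelled ones. Of the 3 that passed the filter, Pecam1 and Vwf rose and Cdh5 fell, with Kdr at 0 in the null-labelled libraries and Emcn at 0 in both groups. Their part in the Pcdh12 result was not tested.

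Pcdh10 and Pcdh8 were close to the detection limit in both groups. Pcdh10, which guides axons of the forebrain, had 1, 0 and 0 counts in the null-labelled libraries, against 7, 2 and 1 in the wild-type-labelled ones. The ratio of null-labelled to wild-type-labelled was 0.104, with a counting interval of 0.0024 to 0.731, and without the filter the adjusted p was 0.0283 with edgeR and 0.126 with DESeq2. Pcdh8, known as arcadlin in rat brain, where neuronal activity induces it, had 0, 1 and 0 counts in the null-labelled libraries, against 1, 0 and 1 in the wild-type-labelled ones, and no difference was detectable at this depth.

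Counted over the non-clustered genes, 7 of 10 passed the filter, and all 7 were called lower, 6 of them by over 8-fold. Both the 7 and the 6 include Pcdh19. Beside these counts stand the 41.1% of all tested genes called lower and the 8.68% called lower by over 8-fold. Nothing is read from the counts, since the set was prompted by this contrast and a gene that passed the filter only through its high group had to differ.

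**Figure D1:**
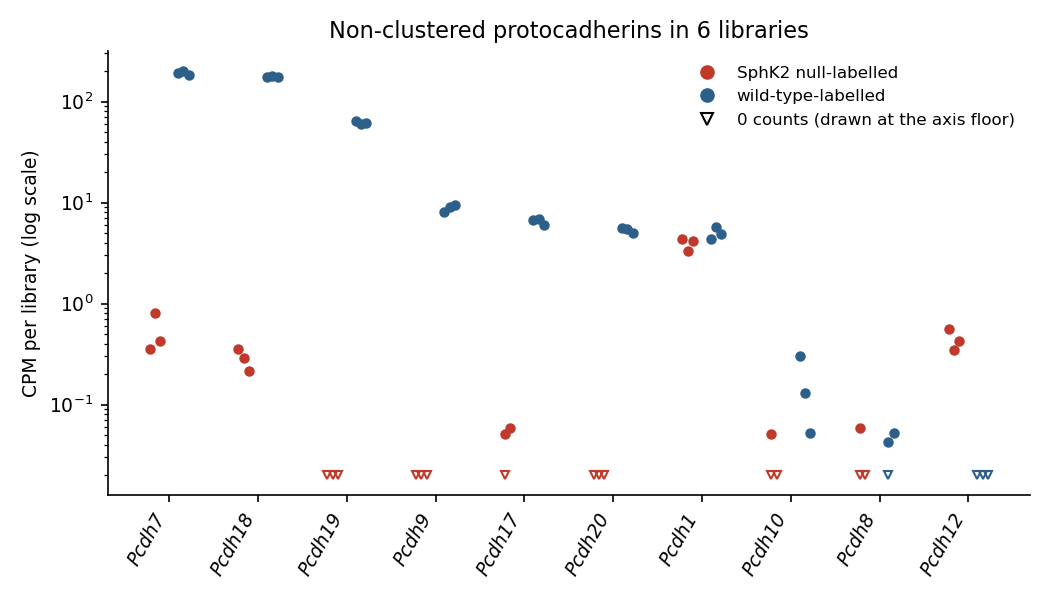
CPM of each non-clustered protocadherin in each library on a log axis, null-labelled libraries in red on the left of each gene and wild-type-labelled ones in blue on the right; open triangles mark 0 counts. Pcdh19, Pcdh9 and Pcdh20 have 3 triangles each on the null-labelled side, Pcdh12 has 3 on the wild-type-labelled side, and Pcdh1 sits between 3.33 and 5.77 CPM in all 6 libraries.

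The plot of non-clustered genes by library shows how the loss changed which gene carried the family. In the null-labelled libraries the 10 genes summed to 5.31 ± 0.411 CPM (SD, n = 3), and Pcdh1 alone gave 75.9%, 67.9% and 79.8% of those counts. In the wild-type-labelled libraries they summed to 457 ± 12.0 CPM, and Pcdh7 gave 42.4%, 42.8% and 41.4%. Levels between genes were compared per kilobase of exon. On that scale Pcdh1 stood first in the null-labelled libraries, at 0.45 ± 0.063 CPM per kilobase (SD, n = 3), followed by Pcdh12 at 0.0737 ± 0.0178, Pcdh18 at 0.0536 ± 0.0135 and Pcdh7 at 0.0503 ± 0.0233, and the last 3 overlapped. In the wild-type-labelled libraries the order was Pcdh18 at 32.9 ± 0.638 CPM per kilobase, Pcdh7 at 18.2 ± 0.784, Pcdh19 at 5.89 ± 0.188, Pcdh9 at 1.3 ± 0.104, Pcdh20 at 0.975 ± 0.0612, Pcdh17 at 0.687 ± 0.0522 and Pcdh1 at 0.571 ± 0.0794 (SD, n = 3). Pcdh17 and Pcdh1 differed by less than their summed SDs, and the steps above them were wider. The Pcdh7 level is an underestimate, because 21.1% of its exonic bases overlap another annotated gene, and reads there were not counted.

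The 22 beta genes are single-exon genes of 2588 to 8695 bases, all on the plus strand of chromosome 18 between 37264938 and 37524479 (GRCm38), a span of 259.5 kb. The beta genes are close paralogs, and reads that match several of them could be lost or misplaced. Of all stretches of 51 bases, the read length, a median of 4.17% per beta gene also occurred in the transcripts of another gene, with a range of 0% to 64.1%. The highest share belonged to Pcdhb12, which an antisense gene, Gm37446, overlaps over 63.5% of its exon, and counting did not use strand. Pcdhb21 and Pcdhb22 overlap each other by 455 bases, and reads there were counted for neither.

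The beta cluster as a whole had a lower sum in the null-labelled libraries, where reads of several genes remained. Its 22 genes summed to 46, 49 and 45 counts in the null-labelled libraries, against 336, 237 and 217 in the wild-type-labelled ones. As CPM these sums were 2.35, 2.86 and 2.4 in the null-labelled libraries, against 14.4, 15.5 and 11.3 in the wild-type-labelled ones. Their means were 2.54 ± 0.281 CPM in the null-labelled libraries and 13.7 ± 2.18 CPM in the wild-type-labelled ones (SD, n = 3 each). The groups did not overlap, and the mean was 5.41-fold lower in the null-labelled libraries, whereas the sum of the non-clustered genes was 86.1-fold lower. That non-clustered sum includes Pcdh19, whose loss prompted the set, at 61.7 of the 457 CPM in the wild-type-labelled libraries. In the null-labelled libraries 16 of the 22 beta genes had at least a single read over the 3 libraries, and in the wild-type-labelled ones 18 had.

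The 5 beta genes that passed the filter lie at the downstream end of the cluster, and they passed it through the wild-type-labelled libraries, where they are higher. All 5 were called lower, beside 41.1% of all tested genes, and nothing is read from that count, which the filter largely fixed. For the same reason no p is given for them. Pcdhb22, the last gene of the array, had 9, 11 and 4 counts in the null-labelled libraries, against 98, 76 and 67 in the wild-type-labelled ones. Its level was 0.438 ± 0.215 CPM in the null-labelled libraries against 4.23 ± 0.739 CPM in the wild-type-labelled ones (SD, n = 3 each), with a log2 fold change of -3.26 ± 0.25 (SE). Pcdhb21, beside it, had 5, 5 and 8 null-labelled counts against 65, 56 and 45 wild-type-labelled ones, with a log2 fold change of -3.13 ± 0.29. Pcdhb16 had 0, 3 and 2 null-labelled counts against 32, 24 and 15 wild-type-labelled ones, with a log2 fold change of -3.68 ± 0.47, which became -3.09 without null-labelled replicate 1 and -4.40 without null-labelled replicate 2. Pcdhb20 had 5, 1 and 1 null-labelled counts against 22, 9 and 11 wild-type-labelled ones, with a log2 fold change of -2.46 ± 0.49, which became -3.55 without null-labelled replicate 1. Pcdhb17 had 3, 9 and 12 null-labelled counts against 44, 30 and 30 wild-type-labelled ones, with a log2 fold change of -2.04 ± 0.30. The order of the 5 by log2 fold change was not stable when single null-labelled libraries were left out. In none of the 5 did a null-labelled library reach the lowest wild-type-labelled one, and how common this was over all genes was not counted.

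Of the 17 beta genes that did not pass the filter, Pcdhb11, Pcdhb14, Pcdhb18 and Pcdhb19 had groups that did not overlap, and Pcdhb11 reached only 0, 0 and 0 null-labelled counts against 3, 1 and 1 wild-type-labelled ones. How often groups failed to overlap over all genes was not counted, so nothing is read from this. Pcdhb14 had 2, 1 and 4 counts in the null-labelled libraries, against 15, 7 and 11 in the wild-type-labelled ones, a null-labelled to wild-type-labelled ratio of 0.221 (counting interval 0.0823 to 0.507). Pcdhb18 had 2, 2 and 2 null-labelled counts against 13, 9 and 8 wild-type-labelled ones, a ratio of 0.208 (0.0707 to 0.508). Pcdhb19 had 5, 3 and 3 null-labelled counts against 24, 6 and 13 wild-type-labelled ones, a ratio of 0.266 (0.124 to 0.524). Each of these intervals lies below a ratio of 1, and covers counting error only. Fitted without the filter, these last 3 were called lower by edgeR, at an adjusted p of 0.000286 for Pcdhb14, 0.00044 for Pcdhb18 and 0.000121 for Pcdhb19. In that fit 7303 of the 27834 genes with an adjusted p were called lower.

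Pcdhb5 was the beta gene with the most reads among those whose groups overlapped. Pcdhb5 had 7, 8 and 7 counts in the null-labelled libraries, against 6, 5 and 7 in the wild-type-labelled ones. The ratio of null-labelled to wild-type-labelled was 1.27, with a counting interval of 0.651 to 2.51, so no difference was detectable at this depth. Pcdhb7 had 2, 2 and 1 null-labelled counts against 3, 6 and 1 wild-type-labelled ones, a ratio of 0.52 (0.139 to 1.67). Pcdhb15 had 1, 3 and 0 null-labelled counts against 2, 3 and 4 wild-type-labelled ones, a ratio of 0.462 (0.104 to 1.66). In both genes the groups overlapped. The 11 other beta genes, Pcdhb1 to Pcdhb4, Pcdhb6 and Pcdhb8 to Pcdhb13, had under 10 counts over all 6 libraries. Of these, Pcdhb1, Pcdhb10 and Pcdhb13 had 0 counts in every library, and no other had more than 5 counts in either group.

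**Figure D2:**
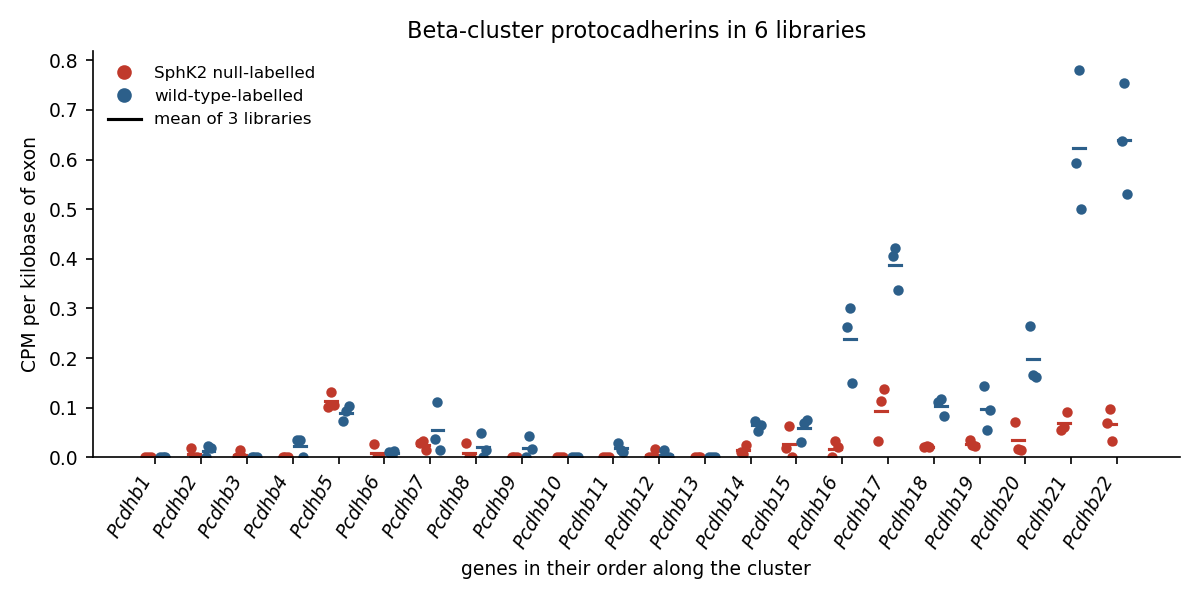
CPM per kilobase of exon for the 22 beta genes in their order along the cluster; points are libraries, null-labelled in red on the left and wild-type-labelled in blue on the right, and bars are means of 3 libraries. The wild-type-labelled points stand highest at Pcdhb21 and Pcdhb22, with means of 0.625 and 0.64 CPM per kilobase, while at Pcdhb5 the red and blue points overlap.

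Reads from the beta cluster came mostly from its downstream genes in both groups, more so in the wild-type-labelled libraries, as the plot of beta genes in cluster order shows. Pcdhb14 to Pcdhb22, a stretch chosen after its values were seen, gave 32, 38 and 36 of the beta counts in the null-labelled libraries, against 315, 220 and 204 in the wild-type-labelled ones. That was 75.7% over the null-labelled libraries (exact binomial 95% interval 67.8% to 82.6%) against 93.5% over the wild-type-labelled ones (91.6% to 95.2%). Pcdhb5 gave 15.7% over the null-labelled libraries (10.1% to 22.8%) against 2.28% over the wild-type-labelled ones (1.36% to 3.58%), with 15.2%, 16.3% and 15.6% in the null-labelled libraries and 1.79%, 2.11% and 3.23% in the wild-type-labelled ones. Its own counts overlapped between the groups. The summed counts of Pcdhb1 to Pcdhb13 were 14, 11 and 9 in the null-labelled libraries, against 21, 17 and 13 in the wild-type-labelled ones. Across the 22 genes, the order along the cluster and the CPM per kilobase had a Spearman rho of 0.573 in the null-labelled libraries and 0.736 in the wild-type-labelled ones. This is a description over genes that share libraries and sequence, and the share of 51-base stretches found in other genes had a rho of 0.11 with the null-labelled levels and 0.164 with the wild-type-labelled ones.

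The gamma cluster, downstream of the beta genes on the same strand, was listed beside them. Of its 22 genes 12 passed the filter, of which 10 were lower, 1 was higher and 1 did not pass the test, beside 41.1% lower and 38.1% higher over all tested genes. Nothing is read from these counts, since most of the 10 passed the filter through the wild-type-labelled libraries alone. Each gamma transcript joins its own variable exon to constant exons that all gamma genes share, and reads over the shared exons were not counted, which left out between 31.5% and 100% of each gene's exonic bases. Pcdhgc3, a C-type gene used in many tissues, averaged 0.16 ± 0.14 CPM in the null-labelled libraries and 29.9 ± 0.704 CPM in the wild-type-labelled ones (SD, n = 3 each), with a log2 fold change of -7.47 ± 0.17 (SE). Pcdhgb6 averaged 0.0566 ± 0.0584 CPM in the null-labelled libraries against 7.71 ± 0.311 CPM in the wild-type-labelled ones, with a log2 fold change of -6.98 ± 0.31. Pcdhga2 averaged 0.0519 ± 0.0512 CPM in the null-labelled libraries against 4.04 ± 0.567 CPM in the wild-type-labelled ones, with a log2 fold change of -6.06 ± 0.38.

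Pcdhgc5 and Pcdhgb1, named after their values were seen, stood against these losses. Pcdhgc5, the most downstream gene of the array, averaged 14.4 ± 0.694 CPM in the null-labelled libraries and 9.47 ± 1.51 CPM in the wild-type-labelled ones, with a log2 fold change of 0.63 ± 0.09 (SE; edgeR quasi-likelihood test, adjusted p = 1.51e-12). Pcdhgb1 averaged 9.08 ± 0.311 CPM in the null-labelled libraries against 9.94 ± 0.47 CPM in the wild-type-labelled ones, with a log2 fold change of -0.12 ± 0.10 and an adjusted p of 0.233. Together these genes gave 89% of the gamma counts in the null-labelled libraries (exact binomial 95% interval 87.3% to 90.6%), against 23.2% (22% to 24.4%) in the wild-type-labelled ones. Pcdhgb7, also named after its values were seen, had 29 counts over the null-labelled libraries and 21 over the wild-type-labelled ones and did not pass the filter. Pcdhga10 had 0 counts in every library, but all of its exonic bases overlap other genes, so it could not have been counted. The alpha cluster, upstream, was nearly silent: none of its 14 measured genes passed the filter, 11 had 0 counts in all 6 libraries, and Pcdhac2 had 0, 0 and 0 counts in the null-labelled libraries, against 33, 6 and 31 in the wild-type-labelled ones.

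**Figure D3:**
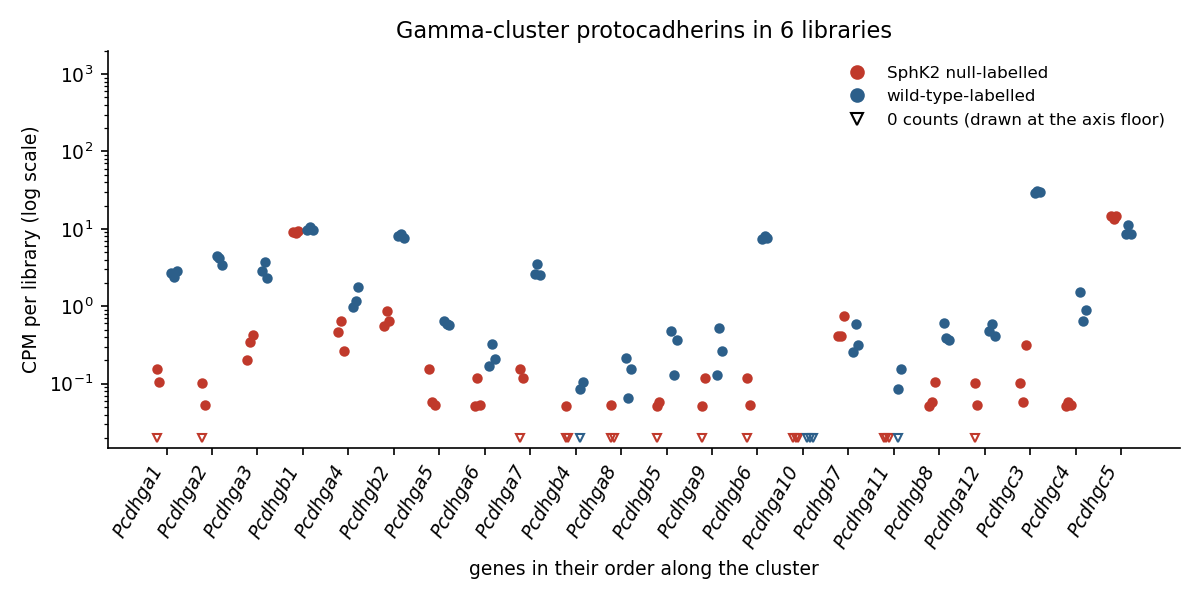
CPM of the 22 gamma-cluster genes in each library on a log axis, in their order along the cluster, null-labelled in red on the left and wild-type-labelled in blue on the right; open triangles mark 0 counts. Pcdhgb1 and Pcdhgc5 are the genes whose red points stand at the height of the blue ones or above them at around 10 CPM, whereas Pcdhgc3 falls to 0.16 CPM in the null-labelled libraries, against 29.9 CPM in the wild-type-labelled ones.

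Genes around the beta cluster were examined to see whether the fall extended along the chromosome. Within 1 Mb on either side, 43 genes reached 1 CPM in either group, of which 10 were higher, 23 lower, 9 did not pass the test and 1 was not tested. These counts include the gamma genes, and 38.1% of all tested genes were higher and 41.1% lower. The nearest such gene upstream was Pcdhac2, 77.3 kb away, and the nearest downstream was Taf7, 116 kb away, which encodes a subunit of the general transcription factor TFIID. Taf7, which sits between the beta and gamma arrays, had 9.26, 8.87 and 10.3 CPM in the null-labelled libraries, against 11.3, 10.3 and 12.2 CPM in the wild-type-labelled ones, and its log2 fold change was -0.25 ± 0.09 (SE; edgeR quasi-likelihood test, adjusted p = 0.00863). The groups of Taf7 touched at 10.3 CPM, and the difference was smaller than that of any beta gene that passed the filter. The next 2 genes, named after their values were seen, differed in direction. Gm8242 was higher at a log2 fold change of 0.52. 3222401L13Rik was lower at -3.44, with 0.656 CPM in the null-labelled libraries against 7.07 CPM in the wild-type-labelled ones. Of 16 listed genes inside or beside the clusters, 15 passed the filter, with 3 higher, 6 lower and 6 that did not pass the test. The largest changes among them were Cd14, an endotoxin co-receptor, at -1.73 ± 0.10, Arap3, a GTPase-activating protein, at -1.71 ± 0.06, and Diaph1, an actin-nucleating formin, at 0.76 ± 0.03 (log2 fold change ± SE).

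**Figure D4:**
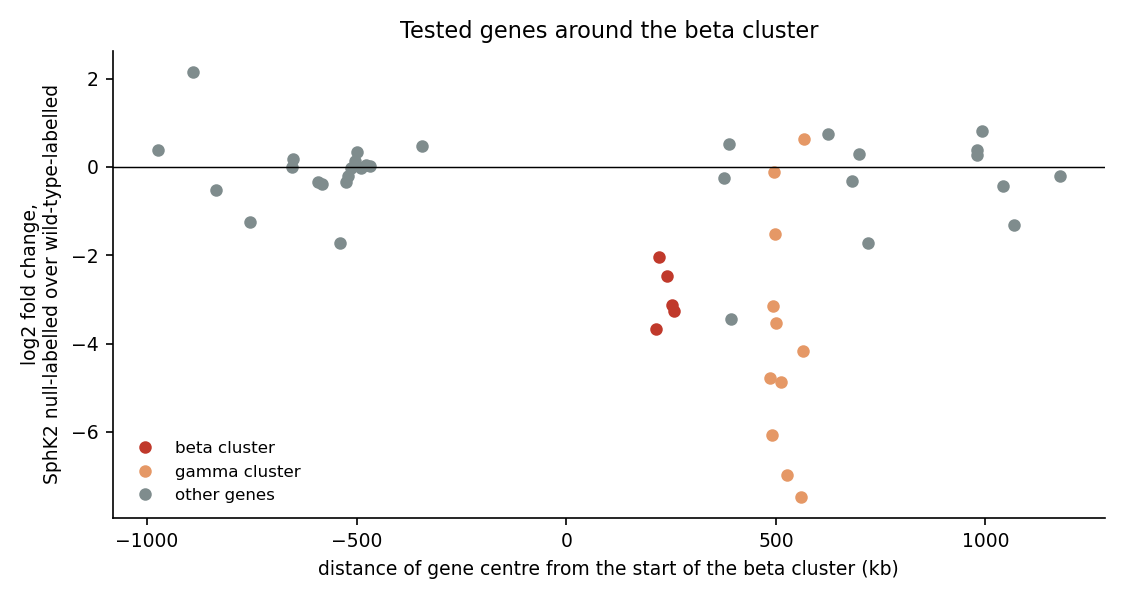
Log2 fold change, null-labelled over wild-type-labelled, of the tested genes within 1 Mb of the beta cluster, against the distance of each gene's centre from the start of the cluster in kb; colours mark beta genes, gamma genes and other genes, and the line is at 0. The 5 tested beta genes lie between -3.68 and -2.04, and the genes outside the arrays lie between -3.44 and 2.15.

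Pcdh19, Pcdh18, Pcdh7 and Pcdh10 were set beside their own neighbours in the same way, and the neighbours of the other non-clustered genes were not examined. Pcdh19 lies between Diaph2, 3117 kb away, which was higher at a log2 fold change of 0.44 ± 0.05 (SE), and Tspan6, 202 kb away, a tetraspanin that was lost like Pcdh19. Tspan6 had 0, 0 and 1 counts in the null-labelled libraries, against 667, 400 and 542 in the wild-type-labelled ones. Of 11 expressed genes within 1 Mb of Pcdh19, 4 were higher, 4 lower and 3 did not pass the test. The nearest genes to Pcdh18 were the pseudogene Gm5846, at a log2 fold change of 0.13 ± 0.06, and Slc7a11, the cystine transporter, 135 kb away, at -1.43 ± 0.06. Around Pcdh18 1 gene of 3 within 1 Mb was higher, 1 lower and 1 did not pass the test. Around Pcdh7 the nearest, Gm8121 at -0.05 ± 0.12 and the pseudogene Cbfa2t2-ps1 at -0.37 ± 0.22, did not pass the test, and 4 of 5 genes within 1 Mb were lower. Over all tested genes 38.1% were called higher and 41.1% lower. Nothing is read from these neighbour counts, which cover few genes. Pcdh10, itself near 0, had D3Ertd751e at -1.99 ± 0.11 and Gm32340 at -0.14 ± 0.21 as its nearest expressed genes, the last of which did not pass the test.

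Regulators that act on clustered protocadherin promoters were all expressed. Of the 20 listed genes, covering CTCF, cohesin and its loaders, Smchd1, Setdb1 and the DNA methyltransferases, 11 were higher, 6 lower and 3 did not pass the test. Over all tested genes 38.1% were called higher and 41.1% lower, and nothing is read from the counts. Dnmt3b, the methyltransferase known in mouse embryos to methylate clustered protocadherin promoters, averaged 26.4 ± 1.21 CPM in the null-labelled libraries and 5.92 ± 0.497 CPM in the wild-type-labelled ones, a log2 fold change of 2.15 ± 0.08 (SE). Dnmt3a, the other de novo methyltransferase, averaged 117 ± 4.35 CPM in the null-labelled libraries against 28.0 ± 1.57 CPM in the wild-type-labelled ones, a log2 fold change of 2.06 ± 0.04. Mau2, which loads cohesin together with Nipbl, was higher by 0.93 ± 0.04 on the same scale. Among the 6 that were lower, named after their values were seen, were Setdb1 at -0.60 ± 0.03 and Trim28 at -0.39 ± 0.02. Dnmt1, at -0.39 ± 0.02, and Smchd1, at -0.32 ± 0.03, were lower too. The median over the 20 genes was 0.12, beside -0.02 over all tested genes, and no methylation was measured here.

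Intracellular partners of protocadherins, mostly members of the WAVE actin-regulatory complex, phosphatase subunits and kinases, were listed beside them. Of 20 listed genes 18 passed the filter, with 6 higher, 8 lower and 4 that did not pass the test, beside 38.1% and 41.1% of all tested genes, and a median log2 fold change of -0.04. Cyfip2, a WAVE complex subunit, averaged 30.9 ± 2.24 CPM in the null-labelled libraries and 0.315 ± 0.226 CPM in the wild-type-labelled ones, a log2 fold change of 6.60 ± 0.15 (SE). Brk1, the smallest WAVE subunit, was higher by 0.63 ± 0.03, and Ptk2b, a focal adhesion kinase that clustered protocadherins inhibit, had a log2 fold change of -0.44 ± 0.05. Dab1 had 0 counts in every library and Ret 3 counts over the null-labelled libraries against 14 over the wild-type-labelled ones, and neither passed the filter. Wasf3, a WAVE subunit named after its values were seen, averaged 0.0341 ± 0.0591 CPM in the null-labelled libraries and 0.757 ± 0.201 CPM in the wild-type-labelled ones. Other large cadherins moved in both directions, with 3 of 5 tested higher and 2 lower. Fat4 and its ligand Dchs1, a planar polarity pair, were also lost. Fat4 averaged 0.0348 ± 0.0302 CPM in the null-labelled libraries and 6.22 ± 0.293 CPM in the wild-type-labelled ones, and Dchs1 0.274 ± 0.106 CPM in the null-labelled libraries and 78.1 ± 3.91 CPM in the wild-type-labelled ones (SD, n = 3 each). Celsr3, which shapes axon tracts, was higher, at 6.02 ± 0.276 CPM in the null-labelled libraries and 0.393 ± 0.0821 CPM in the wild-type-labelled ones.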

How the data were processed

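RNA of mouse embryonic fibroblasts was sequenced in 6 libraries as single reads of 51 bases, and each library had a table of whole-number read counts per Ensembl gene. These counts were made by the authors with featureCounts 1.6.2 on an Ensembl release 83 annotation, per the file headers, by exon and gene identifier and not normalized. No option for strand, multimapping reads or reads in several genes was set there, so by the program's default a read that touched exons of several genes was dropped. The submitters' processing notes also name featureCounts 1.2.6 and Subread 1.6.2, with Trimmomatic 0.33 and FastQC 0.11.2, and list GRCm38, mm10 and hg38 with no role given.

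Symbols were assigned by identifier, with a match for 46488 genes (98.9%). The members and the gene lists were chosen with earlier results of these data known. Genes were filtered with filterByExpr (minimum count 10) and tested with edgeR 4.0.16 (TMM factors, quasi-likelihood F-test, Benjamini-Hochberg adjustment over 15199 genes, threshold 0.05) in R 4.3.3, after a check on simulated data. CPM use the same factors. DESeq2 1.42.0 and other filters and factors were alternatives. Members with 10 or more counts are named with values, and so are the 3 called genes with the largest change in each functional list, provided their average log2 CPM was at least 1, and the nearest expressed neighbours. The level of 1 marker gene is not reported here. Counting intervals are exact 95% intervals, cover counting error only, and a group at 0 was set to a floor of 3 counts. Replicates differed by more than sampling noise (chi-square per degree of freedom 1.49 to 2.15 within groups). Promoter sequences came from RefSeq (GRCm38.p6). An entry used here matched 8 of the 10 non-clustered members.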

Additional observations from a re-analysis of the deposited data

How the results depend on the processing

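The count of beta genes called lower, 5, became 8 with DESeq2 and with no filter on low counts, through Pcdhb14, Pcdhb18 and Pcdhb19, and 3 where over 1 CPM in at least 3 libraries was required. Leaving out 1 library gave 5 to 8, with 8 without null-labelled replicate 1, 2 or 3, where fewer libraries let more genes pass the filter. No non-clustered gene was called higher by edgeR with its filter, at an adjusted or unadjusted p under 0.05, since all 7 tested were lower, and with DESeq2 or without the filter the count became 1, through Pcdh12. Pcdh1 kept its direction but lost its call under 5 alternatives. It also lost its call with edgeR at an adjusted p threshold of 0.01, where 6 non-clustered genes were called lower. Every other member that passed the filter kept its direction and its side of the threshold under the alternatives that tested it. Nothing is read from this, since these members passed the filter through the wild-type-labelled libraries, where they are higher, and Pcdh19 prompted the set. The use of library totals without TMM factors was chosen after seeing the data, and it moved the median log2 fold change of all genes by 0.058. Replicate numbers did not pair the libraries, as the deviations of same-numbered libraries correlated at 0.0123, -0.0028 and 0.0181. The replicate block gave 5 beta genes and 7 non-clustered genes lower, and 5765 genes higher and 6238 lower over all genes, against 5795 and 6245 without it. The low counts of most beta genes limit what could be detected.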
